A study of Mus musculus with 18 samples.

Results

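The 34 genes described here encode enzymes and transporters of glycolysis, of the pentose phosphate pathway and of the step that takes pyruvate into mitochondria. They were taken as a list of gene symbols. All 34 were among the 24072 gene rows of the spleen count table. Of these, 27 were also among the 10702 rows of the count table that holds both BFU-E populations, which keeps only genes with enough counts. The 7 genes missing from that table were Aldoc, Gapdh, Pgk1, Pgam1, Pklr, Ldhb and Slc16a3.

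RNA was sequenced from 4 sorted mouse populations of the B6SJL strain background, with 3 libraries each. Multipotent progenitors (stress MPP, Sca-pos), burst-forming erythroid progenitors (stress BFU-E, Sca-neg) and colony-forming erythroid progenitors (stress CFU-E, CD9-neg) came from spleens at day 8 after lethal irradiation and a transplant of unfractionated marrow. Steady-state BFU-E (BM BFU-E, Sca-neg) came from bone marrow of mice for which the labels give no irradiation. ATAC-seq, which finds open chromatin, was run on stress and BM BFU-E, also with 3 libraries each, and deposited as 1 merged peak list per population. Before sorting, cells with lymphoid (CD4, CD8, B220), granulocytic (Gr-1) or late erythroid (Ter-119) antigens were depleted from all samples. The labels give no age, no number of animals and no pooling, and they do not say which spleen cells came from the host and which from the graft. Tissue, irradiation, the transplant and the fluorophore on the biotinylated antibodies change together between the BFU-E populations and cannot be told apart. The fluorophore was Qdot605 in spleen sorts and Qdot655 in steady-state sorts.

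Glycolysis turns glucose into pyruvate in the cytosol, and the pyruvate is either reduced to lactate or passed to mitochondria. The pentose phosphate pathway branches off after the first step: its oxidative arm makes NADPH, and its non-oxidative arm makes ribose for nucleotides and returns the surplus carbon to glycolysis. Mature red cells have no mitochondria and live on glycolysis, use NADPH against oxidative damage, and make 2,3-bisphosphoglycerate (2,3-BPG), which lowers the oxygen affinity of haemoglobin. Several steps have more than 1 gene, and the isozyme used differs between tissues.

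The spleen libraries held 5937778 to 13197159 counts over all genes. In the BFU-E table the stress libraries held 10555143 to 12926718 counts and the BM libraries 6758871 to 9463498. A count of 0 was seen for 1.53%, 5.81% and 15.3% of the genes of that table in the BM libraries, against 0.421% to 0.738% in the stress BFU-E libraries. An erythroid list of 11 marker genes summed to 42.7 to 60.3 RPKM (reads scaled to transcript length and library size) in MPP, 68.7 to 85.1 in stress BFU-E, 468 to 518 in CFU-E and 50.6 to 84.0 in BM BFU-E. A list of 9 granulocyte and monocyte genes summed to 22.7 to 252 RPKM in MPP, 185 to 263 in stress BFU-E, 5.94 to 46.3 in CFU-E and 188 to 452 in BM BFU-E. In a bulk library, fewer cells of a type and less RNA per cell cannot be told apart.

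By mean RPKM, which is per length, the most abundant of the 34 genes were Ldha, Tkt, Hk1, Aldoa, Taldo1 and Pkm. Ldha, the lactate dehydrogenase that reduces pyruvate to lactate, stood at 123 ± 12.5 RPKM in MPP, 154 ± 7.06 in stress BFU-E, 150 ± 26.2 in CFU-E and 97.6 ± 19.0 in BM BFU-E (SD, n = 3 each). Tkt, the transketolase of the pentose phosphate pathway, stood at 103 ± 4.66, 110.4 ± 6.23, 137 ± 16.5 and 91.0 ± 16.7 RPKM in the same order. At the other end, Gapdh, Pgk1 and Pgam1, which encode the 3 consecutive enzymes after the triose phosphates, were at 0 to 3.40 RPKM in every library. Much of the transcript sequence of these 3 genes recurs elsewhere in the genome. Of the 32-base windows of each transcript, 85.8% for Gapdh, 94.0% for Pgk1 and 93.9% for Pgam1 were found again outside the gene in GRCm38.p6. The median over the 34 genes was 1.72%, and 8 genes were over 50%, among them Eno1 (87.9%), Pkm (67.4%), Ldha (57.3%), Pdhb (51.8%) and Ldhb (51.3%). How the authors' counting treated reads that match several places is not given in the sources used here, so the levels of these genes are uncertain. The rows of Hk3, Pfkp, Tpi1 and Pdha1 overlap those of Unc5a, Pitrm1, Spsb2 and Map3k15 on the other strand, and the Tkt row holds Mir3076.

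Along the spleen series, more of the genes were called at the last step than at the first. In edgeR's quasi-likelihood fit of the 9 spleen libraries, 28 of the 34 genes had a mean of at least 50 counts and were tested. In CFU-E over BFU-E, 8 were higher and 6 lower at an adjusted p under 0.05, against 9.17% of all 10166 genes tested that were higher and 11.9% that were lower. In BFU-E over MPP, 1 was higher and 0 were lower, against 2.03% and 2.11% of all genes, and 7 of the 28 had an unadjusted p under 0.05, against 15.8% of all genes. In CFU-E over MPP, which shares its libraries with both steps, 11 were higher and 6 lower, against 12.7% and 16.0% of all genes. Pklr is among those counted as higher in both comparisons with CFU-E, and it passed the count filter only through CFU-E, where it is high, so it had to differ. Hk3 is among those counted as lower in both, and it passed the filter through MPP and BFU-E, where it is higher. The median log2 fold change of the 28 was 0.12 in CFU-E over BFU-E, 0.12 in BFU-E over MPP and 0.28 in CFU-E over MPP, and the median of all genes tested was 0.00 in each. Calls in CFU-E over BFU-E went in both directions: Hk2, Pfkp and Pkm fell, while Hk1, Pklr and 4 pentose phosphate genes rose.

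**Figure D1:**
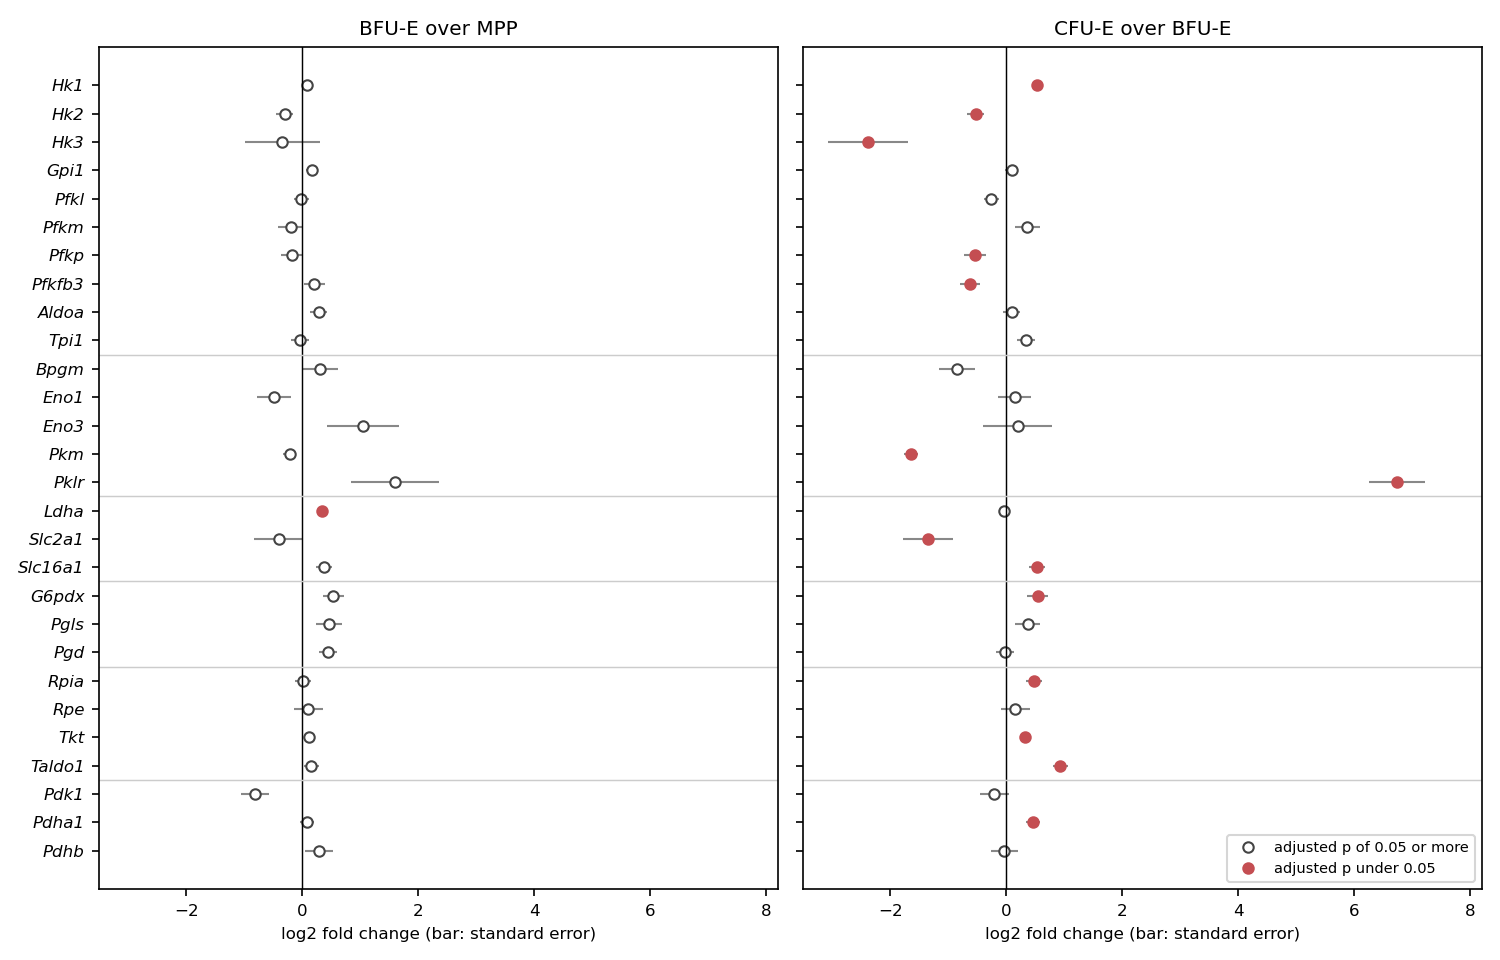
Log2 fold change (x axis, bars are the standard error) of the 28 tested genes (y axis, grouped by role with grey lines), for BFU-E over MPP on the left and CFU-E over BFU-E on the right. Filled points had an adjusted p under 0.05: 1 on the left (Ldha) and 14 on the right, where Pklr stands far to the right at 6.73 and Hk3 and Pkm to the left at -2.38 and -1.64.

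Whether the CFU-E step differed from the BFU-E step was tested by a contrast of the 2 differences, both of which use the BFU-E libraries. It called 2 of the 28 genes higher, against 2.78% of all genes, and 1 lower, against 4.99%. The genes were Pklr, Taldo1 (difference of the log2 fold changes 0.78, SE 0.22, adjusted p = 0.0337) and Pkm (-1.43, SE 0.19, adjusted p = 2.42e-05). The Pklr difference (5.13, SE 1.25, adjusted p = 0.0119) rests on near 0 counts in both MPP and BFU-E, so its size depends on the prior count. As Pklr passed the count filter only through CFU-E, its call here is given as a description. The Pklr difference missed the threshold without MPP replicate 3 (3.93, adjusted p = 0.27) and in DESeq2 (adjusted p = 0.0858). The Taldo1 difference missed it without BFU-E replicate 2 or 3, MPP replicate 1, or CFU-E replicate 1 or 2 (0.60 to 0.78, adjusted p = 0.051 to 0.238). The Pkm difference stayed past the threshold in each alternative run.

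The upper part of glycolysis, from glucose to triose phosphates, is covered by 11 of the genes, of which 10 were tested. In CFU-E over BFU-E, Hk1 rose and Hk2, Hk3, Pfkp and Pfkfb3 fell. Hexokinases phosphorylate glucose and so keep it in the cell, and Hk1 is the form of red cells. Hk1 (chr10:62268855-62340421, minus strand, mm10) had 552, 499.7 and 549 CPM (counts relative to the scaled library total) in MPP, 569.9, 539 and 596 in BFU-E, and 803, 844 and 810.2 in CFU-E. The 3 CFU-E libraries stood above all others, and the 3 BFU-E libraries overlapped MPP (CFU-E over BFU-E 0.53, SE 0.08, adjusted p = 5.28e-05). Hk2 had 116, 102 and 101 CPM in MPP, 90.8, 82.9 and 85.2 in BFU-E, and 64.9, 57.6 and 57.2 in CFU-E. Its groups were in descending order with no overlap, but only the last step passed the test (-0.53, SE 0.15, adjusted p = 0.0123), and BFU-E over MPP was -0.30 (SE 0.15, adjusted p = 0.320).

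Hk3, a hexokinase of myeloid cells, was low throughout and varied between libraries of 1 group. It had 26.5, 6.74 and 6.32 CPM in MPP, 18.2, 6.00 and 7.16 in BFU-E, and 0.775, 2.12 and 3.15 in CFU-E. The high libraries were MPP replicate 1 and BFU-E replicate 1, whose granulocyte and monocyte lists summed to 252 and 263 RPKM, against 47.9 and 22.7 in the other MPP libraries and 185 and 229 in the other BFU-E libraries. The part of such cells in the fall of Hk3 was not tested. The fall in CFU-E over BFU-E was -2.38 (SE 0.70, adjusted p = 0.0173). Hk3 passed the count filter through MPP and BFU-E, where it is higher, and CFU-E added few counts. Its calls are therefore given as a description. The fall over BFU-E missed the threshold without BFU-E replicate 1 or CFU-E replicate 1 (-1.99 to -1.72, adjusted p = 0.0743 to 0.136), and the fall over MPP missed it without MPP replicate 1 (-1.70, adjusted p = 0.0944).

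Phosphofructokinase commits glucose carbon to glycolysis, and its genes Pfkl, Pfkm and Pfkp are named for liver, muscle and platelet. Pfkp had 139, 79.1 and 106 CPM in MPP, 104.5, 91.7 and 90.3 in BFU-E, and 78.4, 55.4 and 63.4 in CFU-E. CFU-E lay below BFU-E in every library (-0.54, SE 0.19, adjusted p = 0.0428). A list of 5 megakaryocyte genes summed to 159.8 to 189 RPKM in MPP, 361 to 438 in stress BFU-E and 10.8 to 11.8 in CFU-E, and its part in the fall of Pfkp was not tested. Pfkl had 124 to 133 CPM in CFU-E and 132 to 184 in BFU-E (-0.26, SE 0.13, adjusted p = 0.185), and Pfkm had 61.0 to 75.1 in CFU-E and 38.3 to 72.7 in BFU-E (0.37, SE 0.21, adjusted p = 0.252).

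Pfkfb3 makes fructose 2,6-bisphosphate, an activator of phosphofructokinase. It had 66.1, 65.8 and 63.3 CPM in MPP, 67.1, 74.3 and 84.3 in BFU-E, and 46.7, 59.0 and 40.8 in CFU-E. BFU-E was the highest population and did not overlap CFU-E (-0.62, SE 0.18, adjusted p = 0.0146). The 5 genes left of this part (Gpi1, Aldoa, Tpi1, Pfkl, Pfkm) were not called in either step, and Aldoc had a mean of 19.3 counts and was not tested. Among the calls in CFU-E over BFU-E, Hk2 missed the threshold without BFU-E replicate 1 (-0.49, adjusted p = 0.0527). Pfkfb3 missed it without BFU-E replicate 3 or CFU-E replicate 1 or 3 (-0.59 to -0.51, adjusted p = 0.0534 to 0.0847), and Pfkp without any 1 BFU-E library, MPP replicate 3, or CFU-E replicate 2 or 3 (-0.58 to -0.43, adjusted p = 0.0534 to 0.171).

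In the lower part of glycolysis, from triose phosphates to pyruvate, the 2 pyruvate kinase genes moved in opposite directions. Pyruvate kinase makes pyruvate and ATP in the last step of glycolysis. Pkm encodes the forms of most tissues, and Pklr encodes the liver form and, from an upstream start, the red cell form. Pklr (chr3:89136142-89146594, plus strand, mm10) had 0.0776, 0.346 and 0.903 CPM in MPP, 1.65, 0 and 1.81 in BFU-E, and 141, 137 and 106 in CFU-E. All 3 CFU-E libraries were far above the other 6, whose values rest on few reads. The fitted log2 fold change of 6.73 in CFU-E over BFU-E depends on the prior count and is no bound, and as the gene passed the count filter only through CFU-E it is given as a description. Pkm (chr9:59656368-59679375, plus strand, mm10) had 327, 306 and 319.98 CPM in MPP, 309, 267 and 246 in BFU-E, and 93.2, 78.1 and 91.7 in CFU-E. CFU-E lay below every other library, with a fitted fold of 3.13 between BFU-E and CFU-E (-1.64, SE 0.12, adjusted p = 1.00e-09), and BFU-E over MPP was -0.21 (SE 0.11, adjusted p = 0.377).

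The windows around the starts of the 2 genes are shown because these genes carry the largest opposite change. They run from 250 bases before to 50 after each RefSeq start, on the plus strand of GRCm38.p6, and capitals mark a GATA motif, the letters of GATA1, the erythroid transcription factor. The motif was searched on both strands as AGATAA as well as AGATAG, and as TGATAA as well as TGATAG, and it reads in reverse complement where it lies on the minus strand. A match is a description and not a bound site.
Pklr, upstream start, chr3:89135892-89136191: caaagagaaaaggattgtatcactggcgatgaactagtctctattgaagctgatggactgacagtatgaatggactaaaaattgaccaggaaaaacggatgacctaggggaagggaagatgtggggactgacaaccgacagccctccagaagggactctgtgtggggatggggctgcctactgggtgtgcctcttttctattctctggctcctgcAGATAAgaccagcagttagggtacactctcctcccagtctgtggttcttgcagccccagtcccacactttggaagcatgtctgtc
Pklr, downstream start, chr3:89136373-89136672: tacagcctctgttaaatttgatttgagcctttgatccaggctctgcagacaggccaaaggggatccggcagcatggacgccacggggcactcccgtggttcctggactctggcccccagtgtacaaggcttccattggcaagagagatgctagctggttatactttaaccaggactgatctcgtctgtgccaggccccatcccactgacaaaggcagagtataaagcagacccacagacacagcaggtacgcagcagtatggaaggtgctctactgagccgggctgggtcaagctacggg
Pkm, first start, chr9:59656326-59656625: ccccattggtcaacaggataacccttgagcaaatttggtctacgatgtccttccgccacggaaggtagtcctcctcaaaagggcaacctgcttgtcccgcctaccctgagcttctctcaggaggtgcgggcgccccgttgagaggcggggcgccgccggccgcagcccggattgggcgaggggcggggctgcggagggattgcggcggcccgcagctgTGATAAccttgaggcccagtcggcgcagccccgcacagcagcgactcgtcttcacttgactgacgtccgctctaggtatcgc
Pkm, second start, chr9:59656977-59657276: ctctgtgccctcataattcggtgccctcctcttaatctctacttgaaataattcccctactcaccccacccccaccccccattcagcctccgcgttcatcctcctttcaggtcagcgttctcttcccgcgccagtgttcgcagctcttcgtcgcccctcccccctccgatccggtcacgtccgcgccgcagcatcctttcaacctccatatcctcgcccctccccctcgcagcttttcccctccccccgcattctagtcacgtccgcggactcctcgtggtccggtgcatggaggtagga

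The upstream Pklr window holds 1 GATA motif on its plus strand, and the downstream window holds none. The first Pkm window holds 1, and the second holds none. The counted Pkm transcript starts at chr9:59656368, upstream of both RefSeq starts shown. Most of the first window, with its motif, and all of the second therefore lie downstream of that start. The motif was found in 29.8% of all 32851 promoter windows in the RefSeq table and in 10 of the 49 windows of the 34 genes, which lie at 8 genes: Pfkm, Aldoa, Gapdh, Eno3, Pkm, Pklr, Slc16a1 and G6pdx. The letters CACCC, bound by Kruppel-like factors, were in 57.5% of all windows and 31 of the 49. ACGTG or GCGTG, the core of sites for hypoxia-inducible factors and, as part of the E-box CACGTG, for MYC, was in 43.8% of all windows and 37 of the 49, at 29 of the 34 genes. The E-box itself was in 7.15% of all windows and 4 of the 49.

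Bpgm, the enzyme that makes 2,3-BPG, was not among the calls. It had 28.7, 24.7 and 20.6 CPM in MPP, 27.5, 35.5 and 29.1 in BFU-E, and 24.0, 9.48 and 17.9 in CFU-E. CFU-E lay below BFU-E without overlap (-0.84, SE 0.31, adjusted p = 0.0597). DESeq2, the fit with the replicate number as a block, the fit of the 2 populations alone and the fit without CFU-E replicate 1 each called it lower. Eno1 had 23.5 to 25.9 CPM in CFU-E and 12.0 to 28.02 in BFU-E (0.14, SE 0.29, adjusted p = 0.796), and Eno3 4.15 to 13.9 and 5.12 to 8.12 (0.20, SE 0.60, adjusted p = 0.865). Both encode enolases, and the Eno1 row overlaps that of Eno1b on the same strand. Gapdh, Pgk1 and Pgam1 had means of 23.7, 19 and 9.67 counts over the 9 libraries and were not tested.

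**Figure D2:**
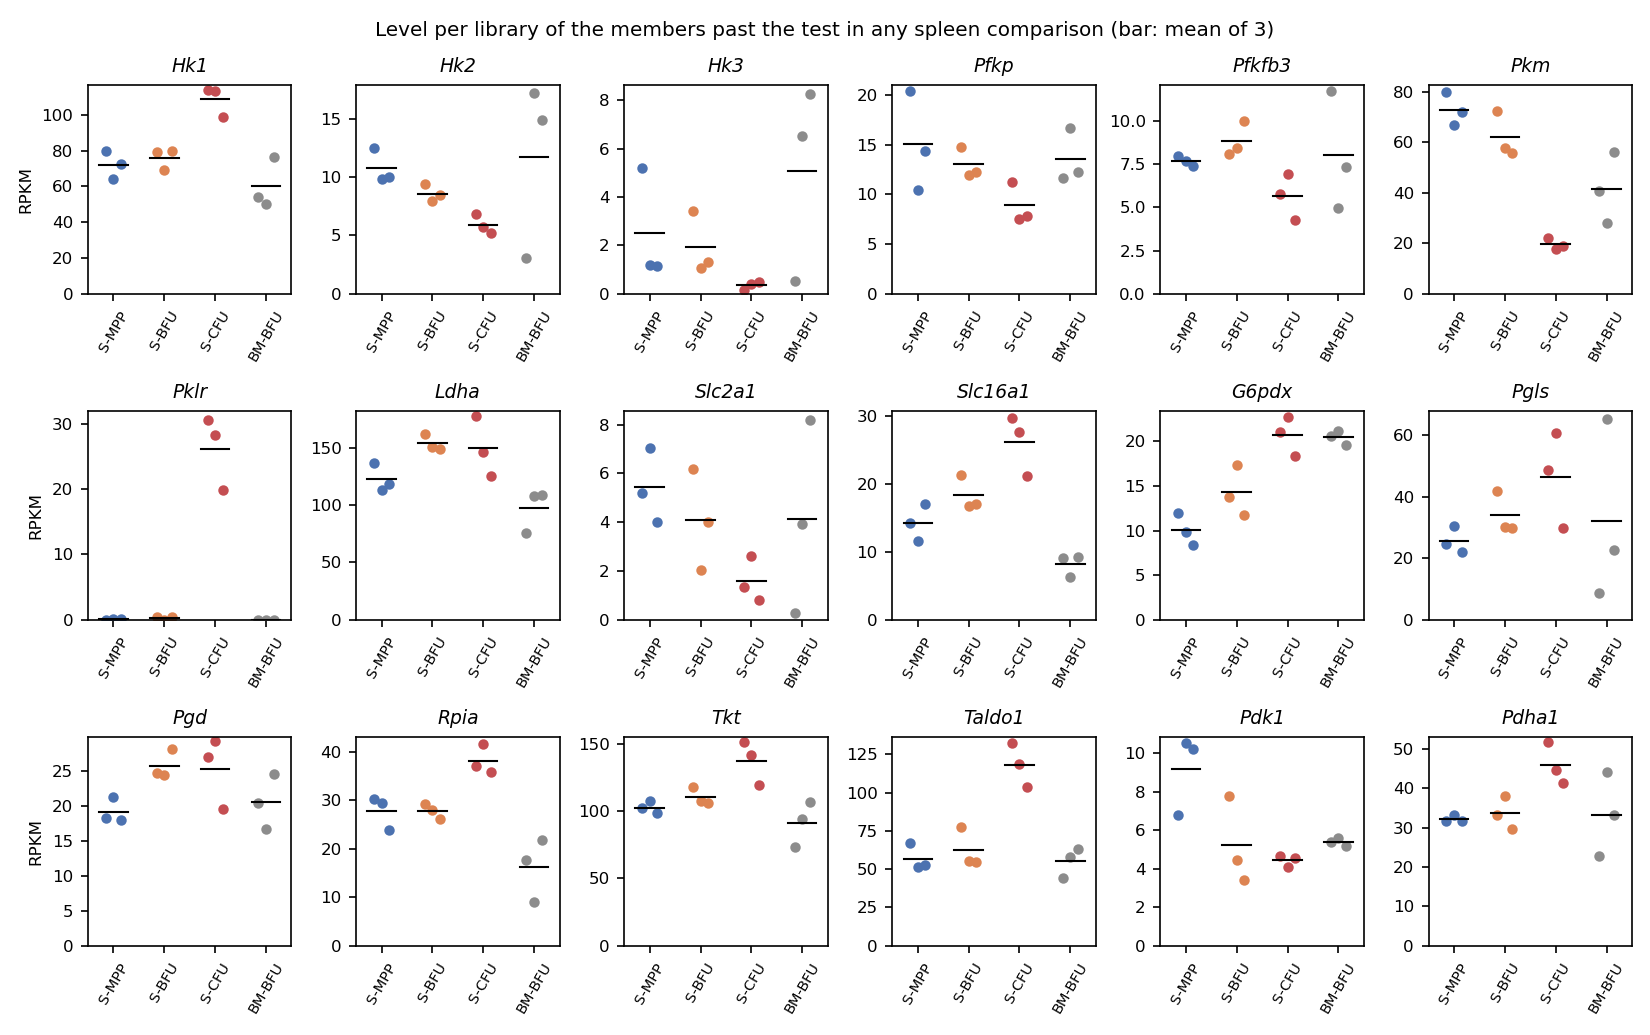
RPKM (y axis, from 0, a scale per panel) in each library of the genes past the test in any spleen comparison; x axis S-MPP, S-BFU and S-CFU are stress MPP, BFU-E and CFU-E from spleen, BM-BFU is steady-state marrow BFU-E, points are libraries and bars the mean of 3. Pklr stands at 19.8 to 30.5 RPKM in CFU-E and at most 0.373 elsewhere, Pkm is lowest in CFU-E, and the BM libraries of many genes are spread more widely than the spleen libraries.

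Lactate and glucose transport showed a gain of the lactate carrier and a loss of the glucose carrier. Slc16a1 encodes MCT1, which carries lactate and pyruvate across the plasma membrane. It had 107, 96.6 and 138 CPM in MPP, 166, 141 and 137 in BFU-E, and 228, 223 and 189 in CFU-E, with CFU-E above every other library (CFU-E over BFU-E 0.52, SE 0.14, adjusted p = 0.00865; CFU-E over MPP 0.90, SE 0.14, adjusted p = 4.45e-05). Slc2a1 encodes GLUT1, the main glucose carrier of human red cells. It had 22.7, 34.2 and 19.0 CPM in MPP, 28.1, 10.1 and 18.8 in BFU-E, and 6.04, 12.2 and 4.07 in CFU-E. CFU-E replicate 2 overlapped BFU-E, and all CFU-E libraries were below MPP (CFU-E over BFU-E -1.35, SE 0.44, adjusted p = 0.0309; over MPP -1.76, SE 0.44, adjusted p = 0.00466). In CFU-E over BFU-E, Slc16a1 missed the threshold without BFU-E replicate 3 (0.47, adjusted p = 0.0531), and Slc2a1 without BFU-E replicate 1 or 3 or CFU-E replicate 1 or 3 (-1.36 to -0.95, adjusted p = 0.0717 to 0.202).

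Ldha (chr7:46845804-46855627, plus strand, mm10) was the only 1 of the 28 called in BFU-E over MPP. It had 376, 347 and 352 CPM in MPP, 462, 464 and 441 in BFU-E, and 497, 431 and 408 in CFU-E. BFU-E stood above MPP in every library, with a fitted fold of 1.27 (0.35, SE 0.09, adjusted p = 0.0409), and CFU-E overlapped BFU-E (-0.03, SE 0.09, adjusted p = 0.859). The BFU-E call was lost without any 1 BFU-E library or MPP replicate 2 or 3 (0.32 to 0.37, adjusted p = 0.0923 to 0.143). The CFU-E over MPP call (0.31, SE 0.09, adjusted p = 0.0160) was lost without CFU-E replicate 1 (0.23, adjusted p = 0.114). Ldhb, whose product favours the reverse reaction, was at 2.71 to 5.37 RPKM in MPP, 0.531 to 1.28 in stress BFU-E, 0 to 0.690 in CFU-E and 0.604 to 3.77 in BM BFU-E, and was not tested. Slc16a3, which encodes the lactate exporter MCT4, was at or below 1.74 RPKM in every library and was not tested either.

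Most pentose phosphate genes were higher in CFU-E than in MPP. Of the 7, 6 were called higher in CFU-E over MPP, against 12.7% of all genes, and none lower. In CFU-E over BFU-E 4 were called higher, against 9.17% of all genes. In the oxidative arm, G6pdx encodes glucose 6-phosphate dehydrogenase, the rate-limiting source of NADPH. It had 53.1, 48.4 and 40.1 CPM in MPP, 63.4, 86.4 and 56.0 in BFU-E, and 94.9, 108 and 96.0 in CFU-E. The 3 populations did not overlap (CFU-E over MPP 1.08, SE 0.18, adjusted p = 1.30e-04; CFU-E over BFU-E 0.54, SE 0.18, adjusted p = 0.0369; BFU-E over MPP 0.54, SE 0.18, adjusted p = 0.117). Pgls, the lactonase, had 38.1, 49.8 and 36.0 CPM in MPP, 67.6, 51.5 and 51.0 in BFU-E, and 74.8, 93.0 and 51.3 in CFU-E. It passed the test in CFU-E over MPP (0.83, SE 0.22, adjusted p = 0.00665), and CFU-E over BFU-E was 0.37 (SE 0.21, adjusted p = 0.262).

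Pgd, the second dehydrogenase of the oxidative arm, had 68.9, 89.2 and 73.0 CPM in MPP, 96.7, 103 and 114 in BFU-E, and 104, 119 and 86.9 in CFU-E. CFU-E replicate 3 overlapped MPP, and the call in CFU-E over MPP was close to the threshold (0.42, SE 0.16, adjusted p = 0.0473). Pgd missed it without any 1 BFU-E library, MPP replicate 1 or 3, or CFU-E replicate 1 or 2 (0.31 to 0.42, adjusted p = 0.0575 to 0.209). Pgls missed it in CFU-E over MPP without CFU-E replicate 2 (0.62, adjusted p = 0.0573), and G6pdx missed it in CFU-E over BFU-E without BFU-E replicate 1 or 3 or any 1 CFU-E library (0.41 to 0.57, adjusted p = 0.0621 to 0.184).

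In the non-oxidative arm, Taldo1 encodes transaldolase, which with transketolase returns sugar phosphates to glycolysis. Taldo1 (chr7:141392160-141402976, plus strand, mm10) had 144, 123 and 122 CPM in MPP, 173, 134 and 127 in BFU-E, and 291, 274 and 264 in CFU-E. CFU-E stood above every other library, with a fitted fold of 1.91 over BFU-E (0.93, SE 0.13, adjusted p = 1.25e-05). Tkt (chr14:30549131-30574726, plus strand, mm10) had 555, 655 and 581 CPM in MPP, 667, 659.8 and 624 in BFU-E, and 844, 831 and 771 in CFU-E, again with CFU-E highest (over BFU-E 0.33, SE 0.08, adjusted p = 0.00676). Rpia, the ribose 5-phosphate isomerase, had 90.2, 98.7 and 77.5 CPM in MPP, 91.1, 94.1 and 84.2 in BFU-E, and 113, 134 and 128 in CFU-E (over BFU-E 0.48, SE 0.14, adjusted p = 0.0186). Rpe, the epimerase, overlapped among the 3 populations (CFU-E over BFU-E 0.16, SE 0.25, adjusted p = 0.725), and its row overlaps that of Kansl1l on the other strand. Rpia missed the threshold in CFU-E over BFU-E without BFU-E replicate 3 or CFU-E replicate 2 or 3 (0.42 to 0.46, adjusted p = 0.0511 to 0.0811), and over MPP without MPP replicate 3 or CFU-E replicate 2 (0.41 to 0.44, adjusted p = 0.0538 to 0.0562).

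At the entry to mitochondria, a pyruvate dehydrogenase subunit and the kinase that inhibits the complex went opposite ways between MPP and CFU-E. Pdha1, the E1 alpha subunit, had 153, 179 and 165 CPM in MPP, 166, 207 and 155 in BFU-E, and 255, 232 and 237 in CFU-E, above all other libraries (over BFU-E 0.46, SE 0.12, adjusted p = 0.00932; over MPP 0.54, SE 0.12, adjusted p = 0.00191). Pdk1, the inhibitory kinase, had 59.4, 103 and 97.5 CPM in MPP, 71.0, 43.9 and 32.5 in BFU-E, and 42.1, 38.5 and 47.6 in CFU-E. CFU-E lay below every MPP library (-1.02, SE 0.25, adjusted p = 0.00401), and BFU-E overlapped MPP (-0.81, SE 0.25, adjusted p = 0.0722). Pdhb, the E1 beta subunit, was called in no comparison (CFU-E over MPP 0.27, SE 0.24, adjusted p = 0.453). Pdha1 missed the threshold in CFU-E over BFU-E without BFU-E replicate 3 (0.37, adjusted p = 0.0691).

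Within families of isozymes, shares of the summed RPKM differed most for pyruvate kinase. Pklr made up 0.127% ± 0.120 of Pkm plus Pklr in MPP, 0.384% ± 0.344 in stress BFU-E, 56.9% ± 5.25 in CFU-E and 0.0329% ± 0.0289 in BM BFU-E (SD, n = 3 each). The CFU-E libraries ran from 51.3% to 61.6%, and no other library was above 0.666%. Hk2 made up 12.6% ± 0.627 of the 3 hexokinases in MPP, 9.93% ± 0.403 in stress BFU-E and 5.13% ± 0.442 in CFU-E, with no overlap between the 3, and 5.38% to 23.2% in the BM libraries. Hk1 made up 84.7% ± 2.51, 87.9% ± 1.59 and 94.6% ± 0.317 in MPP, stress BFU-E and CFU-E. Of the phosphofructokinases, Pfkm took 31.9% ± 1.41 in CFU-E against 21.5% ± 6.08 in BFU-E, and Pfkp 21.7% ± 2.14 against 28.8% ± 2.45, while Pfkl took 46.4% ± 3.45 against 49.7% ± 4.69 with overlap. Ldhb took 3.37% ± 1.00 of the lactate dehydrogenases in MPP, 0.633% ± 0.241 in stress BFU-E and 0.129% ± 0.224 in CFU-E.

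For shares that did not overlap between 2 populations, the exact two-sided permutation test gave p = 0.1, the smallest p that 3 against 3 libraries allow, and the adjusted p over 47 such tests was 0.247.

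**Figure D3:**
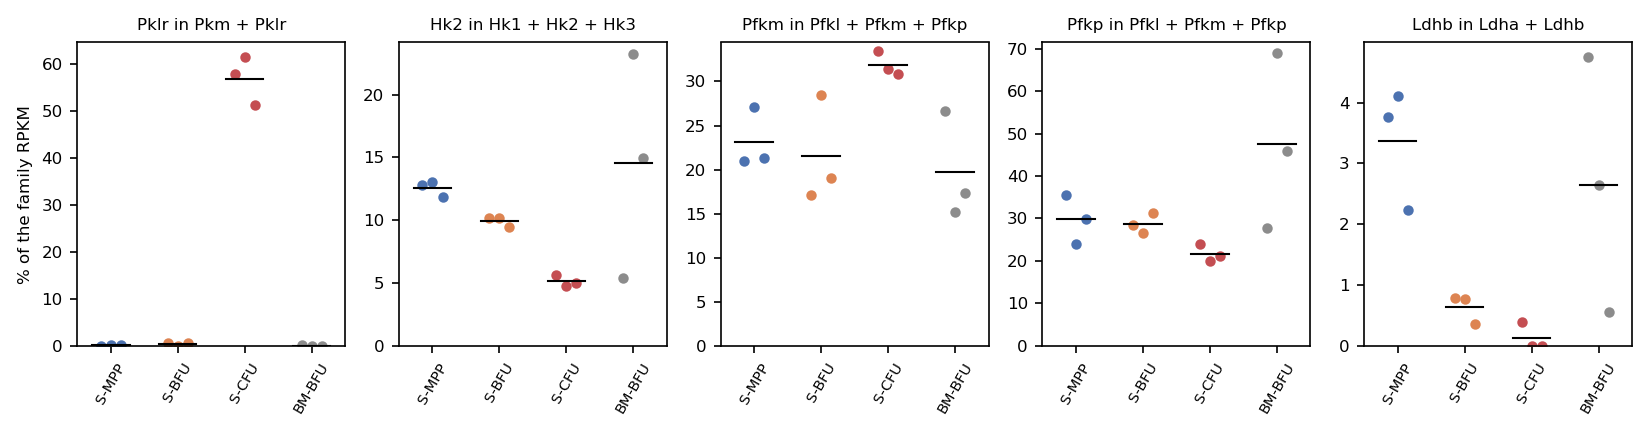
Share of a family's summed RPKM (y axis, percent, from 0, a scale per panel) taken by Pklr, Hk2, Pfkm, Pfkp and Ldhb in each library; x axis S-MPP, S-BFU and S-CFU are stress MPP, BFU-E and CFU-E from spleen, BM-BFU is steady-state marrow BFU-E, and bars are the mean of 3. The Pklr share is 51.3% to 61.6% in CFU-E and near 0 elsewhere, the Hk2 share is lower at each stage from MPP to CFU-E, and the BM points for Hk2 and Pfkp are widely spread.

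Stress BFU-E and BM BFU-E were compared in the table of the 6 BFU-E libraries, a comparison that asks how stress progenitors differ from their steady-state counterparts. None of the 27 genes passed edgeR's test, in which 0.112% of the 10702 genes were called in either direction. Of the 27, 2 had an unadjusted p under 0.05, against 9.84% of all genes. Fold changes were positive for 20 of the 27, with a median log2 fold change of 0.27 against 0.01 over all genes. The spread between libraries was wide, with a common biological coefficient of variation of 0.704 in this fit and 0.2504 in the spleen fit. DESeq2 called 2 of the 27 higher, Ldha and Slc16a1, among 264 genes it called higher and 421 lower.

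Ldha had 468, 472 and 449 CPM in stress BFU-E, against 228, 337 and 326 in BM BFU-E (0.64, SE 0.18, adjusted p = 0.309). Slc16a1 had 168.5, 143 and 139.8 CPM in stress BFU-E, against 75.6, 78.0 and 51.9 in BM BFU-E (1.14, SE 0.24, adjusted p = 0.210). In both genes every stress library was above every BM library. Pfkl (186, 146 and 134 CPM in stress BFU-E, against 133, 69.97 and 26.4 in BM BFU-E) and Rpia (92.2, 95.8 and 85.7, against 57.9, 74.1 and 29.8) also did not overlap, which makes 4 of 27 higher without overlap, against 12.8% of all genes. G6pdx was the 1 gene lower without overlap, against 9.08% of all genes, with 64.3, 87.9 and 57.0 CPM in stress BFU-E and 99.9, 98.3 and 103 in BM BFU-E (-0.53, SE 0.25, adjusted p = 0.555).

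Other genes showed how far the BM libraries lay apart. Bpgm had 27.9, 36.2 and 29.6 CPM in stress BFU-E, against 9.01, 31.0 and 0 in BM BFU-E (1.22, SE 1.39, adjusted p = 0.844). Hk2 had 91.9, 84.3 and 86.7 CPM in stress BFU-E, against 31.8, 157 and 176 in BM BFU-E (-0.47, SE 0.54, adjusted p = 0.845). Pklr was at 0.352, 0 and 0.373 RPKM in stress BFU-E, against 0 to 0.0250 in BM BFU-E. Macrophage marker genes, a list of 8, summed to 2.36 to 5.98 RPKM in stress BFU-E, against 23.3 to 34.0 in BM BFU-E, with Marco at 0 in all libraries. Most of the BM sum was Csf1r (8.99 to 18.2 RPKM) and Cd68 (7.67 to 21.9). C1qa, Vcam1 and Mrc1 stood at 0 to 0.573 RPKM in the BM libraries. Adgre1 stood at 0.758 to 2.345 RPKM there, against 0 to 0.253 in stress BFU-E. C1qb was at 4.479 RPKM in BM replicate 3 and at 0 in the other BM and all stress BFU-E libraries. The megakaryocyte list summed to 361 to 438 RPKM, against 586 to 798. The part of such cells in these differences was not tested.

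**Figure D4:**
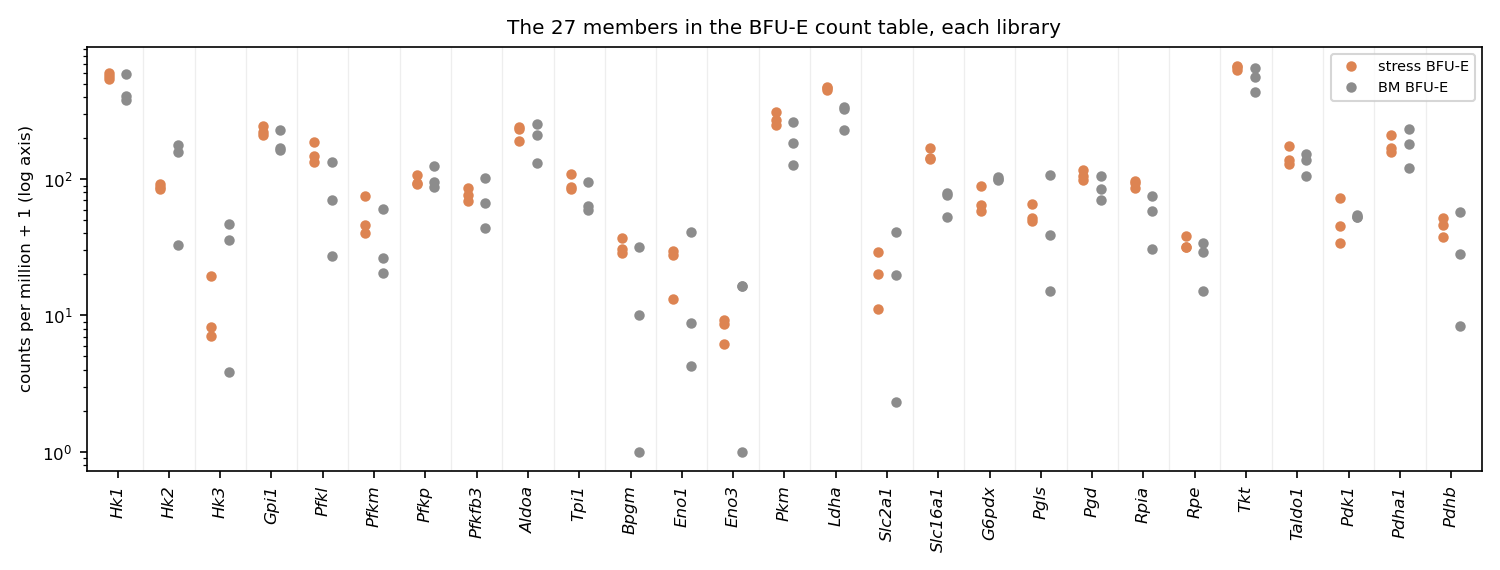
CPM plus 1 (y axis, log scale) of the 27 genes of the BFU-E count table (x axis), a point per library, stress BFU-E in orange left of BM BFU-E in grey. Stress libraries lie close together for most genes, while BM libraries spread widely for genes such as Bpgm, Hk2 and Pfkl. Slc16a1 and Ldha stand higher in all 3 stress libraries.

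Peaks near the starts of these genes were about as frequent as among genes with RNA in BFU-E. A peak within 1 kb of an annotated start was named for 28 of the 34 genes in the stress BFU-E list, against 51.7% of all 24072 genes and 82.4% of genes with a mean RPKM of at least 1 there. The BM BFU-E list also had 28 of 34, against 44.9% of all genes and 77.8% of genes with a mean RPKM of at least 1. There is 1 merged list per population, so peaks were compared without replicates or a test. The start itself lay inside a peak for 30 of the 34 genes in each list, whichever gene the peak was named for. The exceptions were Hk3, Aldoc, Eno3 and Pklr. Nearest to the upstream Pklr start, peaks lay 22981 bases away in the stress BFU-E list and 23733 bases away in the BM BFU-E list, both named for Hcn3, so no open site was listed at Pklr in BFU-E of either kind. CFU-E chromatin was not profiled.

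Peaks of 1 list alone were more numerous in the stress list. The stress BFU-E list held 135 peaks named for 29 of the genes, of which 84 (62.2%) overlapped a BM peak by at least 1 base, and the BM list held 88 peaks for 30 genes, of which 86 (97.7%) overlapped a stress peak. Over all peaks the shares were 55.0% of 61661 stress peaks and 95.5% of 35142 BM peaks. Of the 51 stress peaks with no BM overlap, 50 were over 1 kb from a start, as were 91.4% of all 27740 such stress peaks. More peaks in the stress list than in the BM list were found for 21 of the 30 genes with a peak in either (70%), against 65.6% of 18127 such genes in all, a share close to that of the whole, longer stress list. The largest excess was at Bpgm, with 8 stress peaks and 1 BM peak. Pfkfb3 had 11 and 6, Slc2a1 7 and 3, Hk1 11 and 7, and Rpia 12 and 9. Ldhb had 0 stress peaks and 3 BM peaks by printed gene name, but 5 and 4 once peaks that print no name were given to their nearest transcript.

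**Figure D5:**
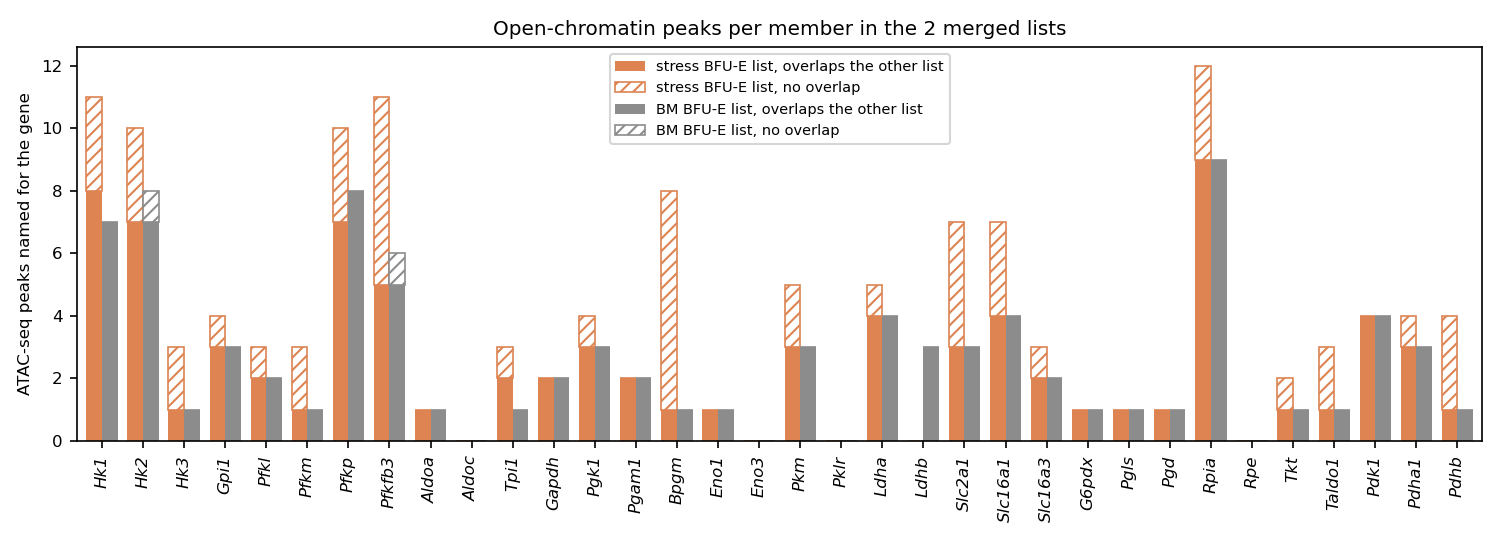
Number of ATAC-seq peaks (y axis) named for each of the 34 genes (x axis) in the merged stress BFU-E list (orange, left) and BM BFU-E list (grey, right); solid parts overlap a peak of the other list and hatched parts do not. Bpgm has 7 hatched peaks in the stress list, Pfkfb3 6 and Slc2a1 4, and hatched BM peaks are found at Hk2 and Pfkfb3, 1 each.

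Bpgm lies at chr6:34476356-34505610 on the plus strand (mm10). Its single BM peak covers the start, and so does 1 of its stress peaks. The other 7 stress peaks had no BM overlap and were centred at -28193 bases from the start, in intron 1 at 4621 and 10127 bases, in intron 2 at 18827 bases, and after the gene at 35221, 42935 and 49969 bases. At these peaks 5 of 7 central windows of 300 bases held a GATA motif, and neither promoter peak did. The 2 windows in intron 1 are shown as examples. All 7 peaks are listed as open in stress BFU-E alone, and both windows shown are among the 5 of 7 that hold the motif. The windows shown are on the plus strand of GRCm38.p6, with the GATA motif in capitals as above.
Bpgm, intron 1, chr6:34480828-34481127: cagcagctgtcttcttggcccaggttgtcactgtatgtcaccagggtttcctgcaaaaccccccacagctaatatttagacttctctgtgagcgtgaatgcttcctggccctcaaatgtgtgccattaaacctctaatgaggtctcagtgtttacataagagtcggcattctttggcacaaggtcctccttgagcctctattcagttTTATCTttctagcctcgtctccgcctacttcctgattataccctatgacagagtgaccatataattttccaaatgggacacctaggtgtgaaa
Bpgm, intron 1, chr6:34486334-34486633: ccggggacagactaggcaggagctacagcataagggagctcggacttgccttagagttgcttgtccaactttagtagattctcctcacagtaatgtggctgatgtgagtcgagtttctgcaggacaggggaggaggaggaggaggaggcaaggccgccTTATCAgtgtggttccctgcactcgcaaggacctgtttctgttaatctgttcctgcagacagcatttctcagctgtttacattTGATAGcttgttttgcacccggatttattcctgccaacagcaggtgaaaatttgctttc

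Over the distal stress peaks with no BM overlap, 27 of 50 windows at these genes held the motif (54%), against 46.3% of all 25347 such peaks. Among shared distal peaks it was 20 of 52 (38.5%), against 42.8% of 22183, and within 1 kb of a start 4 of 33, against 14.6% of 14131. Bpgm RNA overlapped between the populations (27.9 to 36.2 CPM in stress BFU-E, against 0 to 31.0 in BM BFU-E).

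Other genes of the same pathways, a list of 58, were counted in the same fits. In CFU-E over BFU-E, 7 of the 36 tested were higher and 6 lower, against 9.17% and 11.9% of all genes, and their median log2 fold change was 0.20. Minpp1, an inositol phosphate phosphatase that also acts on 2,3-BPG, had 125 to 157 CPM in CFU-E and 46.2 to 50.9 in BFU-E (1.57, SE 0.16, adjusted p = 2.18e-07). Klf1, the erythroid Kruppel-like factor with Pklr among its known targets and 1 of the erythroid markers, rose at both steps, with 7.77 to 17.5 CPM in MPP, 24.2 to 33.4 in BFU-E and 139 to 171 in CFU-E (BFU-E over MPP 1.24, SE 0.23, adjusted p = 0.00277; CFU-E over BFU-E 2.40, SE 0.23, adjusted p = 7.85e-08). Myc rose (0.87, SE 0.10, adjusted p = 2.26e-06), as did Pgm1, Pgp, Bsg and Dlat. Slc2a3, the second glucose carrier, fell to 56.6 to 78.1 CPM in CFU-E, against 136 to 138 in BFU-E (-1.09, SE 0.17, adjusted p = 8.67e-05). Slc16a7, Hif1a, Pfkfb2, Pgm2 and Pdk3 also fell. In BFU-E over MPP 1 of the 36 was higher, against 2.03% of all genes, and 0 lower, against 2.11%, with Klf1 the only call. In stress BFU-E over BM BFU-E edgeR called 0 of 38, against 0.112% of all genes, with a median of 0.01.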

How the data were processed

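RNA was measured in 12 libraries and open chromatin in 6, with groups of 3 taken from the sample titles. The submitters' processing notes name HOMER 4.8, DESeq2, Bowtie2 2.3.4.2 and STAR 2.6.0b-1 and the build mm10 (GRCm38), with no step for any. Per the file headers, the authors counted reads over exons with HOMER and kept 1 transcript per gene. The counting strand is not given, so reads of overlapping genes may be mixed. Raw counts make up both deposited count tables: one has the 9 spleen libraries, the other both BFU-E populations, filtered by the authors on a mean of 50 counts. RPKM values were deposited as scaled to length and depth by the authors. In the 12-library table the 3 BM columns did not match the counts and were not used. BM levels came from the 6-library table, where the name of 1 BM column is incomplete. For ATAC-seq, the authors deposited a merged list of peaks for each population, with a score per peak; the peak caller is not given in the sources used here.

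The test on counts was edgeR's quasi-likelihood F test (edgeR 4.0.16 in R 4.3.3, TMM scaling), with Benjamini-Hochberg adjustment over all genes tested and a threshold of 0.05. A single fit covered all 9 spleen libraries and the 10166 genes whose mean count was at least 50. SE is the log2 fold change over the square root of F. Alternatives were DESeq2 1.42.0, other scaling, another filter, limma 3.58.1 on log2(RPKM + 1) and log2(RPKM + 0.1), the replicate number as a block, and leaving out each library. Peaks were compared with bedtools 2.31.1 after repeated entries were merged. Sequences came from RefSeq tables and the genome of GRCm38.p6, which matched all 34 genes. The member list, the marker lists and the pathway lists were chosen with earlier results of these data known. The genes given with values in every spleen library were those past the test in any comparison and Bpgm. Of the most abundant genes of each family, Pfkl and Eno1 are given by range in spleen and Aldoa without values. The labels do not say that libraries came from separate animals, so p-values measure the spread between libraries, which may be technical.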

Additional observations from a re-analysis of the deposited data

How the results depend on the processing

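No gene that passed the test changed sign under the alternatives run. The median of the difference between the CFU-E step and the BFU-E step was -0.09 and ran from -0.17 to 0.0093 with 1 library left out. Among single genes that passed the test, 265 of 315 values with 1 library left out and 252 of 277 values under the other settings stayed past the threshold, and the rest kept their direction but missed it. Genes past the threshold in every alternative were Hk1, Pklr, Pkm and Taldo1 of the 14 called in CFU-E over BFU-E, and 11 of the 17 called in CFU-E over MPP. Pklr is in both sets and in the tallies above. It passed the count filter only through CFU-E, so it had to differ and its kept calls are no support. Hk3 is also in the tallies, and it passed the filter through MPP and BFU-E, where it is higher.

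Leaving out each library in turn, 0 to 1 were higher and 0 to 1 lower in BFU-E over MPP. Over all 10166 genes 109 to 213 were higher and 116 to 245 lower. In CFU-E over BFU-E 4 to 9 were higher and 2 to 6 lower, against 671 to 1061 and 978 to 1279 of all genes. In the test of the CFU-E step against the BFU-E step 1 to 3 were higher and 1 to 2 lower, against 161 to 307 and 339 to 514. Fewer samples enter those fits. The median log2 fold change ran from 0.19 to 0.42 in stress BFU-E over BM BFU-E, the highest without BM replicate 2, and from 0.24 to 0.38 in CFU-E over MPP, the highest without MPP replicate 2. DESeq2 called 2 higher in stress BFU-E over BM BFU-E, against 264 of all 10702 genes. In BFU-E over MPP it called 1 lower (Pdk1), against 327 of all 10166 genes. Without a filter on low counts, 3 were higher (Ldha, G6pdx and Pklr) and 1 lower (Pdk1) in BFU-E over MPP. Over all 16279 genes in that fit, 311 were higher and 357 lower. With limma on log2 RPKM, 0 were higher in BFU-E over MPP at either pseudocount, against 99 of all 10166 genes at 1 and 82 at 0.1. In CFU-E over BFU-E, limma found 5 higher at either, against 621 genes at a pseudocount of 1 and 605 at 0.1. It found 1 lower at a pseudocount of 1, against 940 genes, and 2 lower at 0.1, against 988. In the test of the 2 steps it found 1 higher at either, against 188 genes at 1 and 163 at 0.1. At a pseudocount of 0.1 the median in stress BFU-E over BM BFU-E was 0.42, with 0.21 over all genes. The cause of these differences was not tested. With HOMER's promoter class in place of a distance of 1 kb, 19 genes had a promoter peak in the stress list and 17 in the BM list. With peaks that print no gene name given to their nearest transcript, a choice made after seeing the data, 31 genes had a promoter peak in each list and 143 stress and 93 BM peaks were counted. The share of all genes was not computed under these peak settings, so the counts cannot be set against genes in general.

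With group means taken out, same-numbered libraries correlated at -0.036 to -0.030 in the BFU-E table and 0.015 to 0.115 in the spleen table. Libraries with different numbers correlated at -0.012 to 0.044 and at -0.090 to 0.030. In the spleen table same-numbered libraries thus tended to correlate more, though weakly, and whether they are paired was not tested. With the number as a block, 0 of the genes were called in stress BFU-E over BM BFU-E, against 0 higher and 3 lower of all 10702. In BFU-E over MPP 1 was higher, against 232 of all 10166 genes. In CFU-E over BFU-E 8 were higher and 7 lower (with Bpgm added), against 976 and 1245 of all genes. In CFU-E over MPP 11 were higher and 6 lower, against 1323 and 1649. In the test of the steps 2 were higher and 1 lower, against 313 and 539. Pklr outside CFU-E rests on few reads, and Gapdh, Pgk1, Pgam1, Aldoc, Ldhb and Slc16a3 had mean counts under 50 and were not tested.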
